A study of Rattus norvegicus albus with 6 samples.

Results

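The genes described here encode the mitochondrial respiratory chain and ATP synthase, read in culture-activated rat hepatic stellate cells after 3 treatments that interfere with canonical Wnt signalling. Members were chosen by symbol alone: every gene whose name starts with Nduf, Uqcr or Atp5, the Sdh genes of succinate dehydrogenase, the Cox genes of the nuclear-encoded cytochrome c oxidase subunits, and Cyc1 and Cycs. Of 14322 genes named on the array, 80 met this rule, from 92 probe sets, and where a gene had several probe sets the one with the highest mean stood for it. A filter on low level left out the lowest 30% of genes (mean log2 level up to 6.39), which kept 10025 genes and 76 of the members. The 4 members under the filter were Cox4i2, Cox6a2, Cox8b and Cox8c. By complex, 36 of the 80 belonged to complex I, 4 to complex II, 7 to complex III, 16 to complex IV and 16 to complex V, and Cycs, the gene of cytochrome c, stood alone. Ndufa4, named as a complex I gene, was counted with complex IV, to which its protein was later assigned. Cyc1 had no probe set under its symbol alone and was not analysed here.

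Primary hepatic stellate cells, the liver cells that become matrix-producing myofibroblasts in fibrosis, were held for 7 days on plastic in 10% serum. Cells given adenovirus carried either DKK-1 (Ad.DKK-1), a secreted antagonist of the Wnt co-receptors, or green fluorescent protein (Ad.GFP), at a multiplicity of infection of 200 for 24 h in 5% serum and then 24 h without serum. Other cells received ICG-001, which blocks the partnership of beta-catenin with the coactivator CBP, at 10 µM, or FJ9, which keeps the signalling protein Dishevelled from docking on Frizzled receptors, at 200 µM. Both compounds were given for 24 h without serum, and each had a vehicle culture of its own. There were 6 arrays, 1 for each group, each of RNA combined from 3 to 4 rats, so no single difference has a replicate check. The cells of all groups were activated by the same culture on plastic.

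The respiratory chain passes electrons from NADH (through complex I) and succinate (through complex II) to ubiquinone, then through complex III and the mobile carrier cytochrome c to complex IV, which reduces oxygen. Complexes I, III and IV pump protons across the inner membrane, and complex V, the ATP synthase, uses that gradient to make ATP. All subunits of complex II and most of the others are encoded in the nucleus, while a core set is encoded in mitochondrial DNA and must be assembled together with the nuclear-encoded subunits by dedicated factors. No probe set was listed under the symbols searched for the mitochondrially encoded subunits, so the values below are of nuclear genes only.

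All values are log2 expression values after RMA, the robust multi-array average, and a difference is the treated array less its own control on that scale. A difference of 0.58 either way is 1.5-fold, the size used below to count genes, and the same count over all 10025 genes is the background. The vehicle array of FJ9 minus that of ICG-001 shows how far untreated pools differed. Stellate cell markers had a median log2 level of 12.0 with 11 of 12 measured past the filter, led by Vim. Markers of other liver cells were mostly under it, with 2 of 11 hepatocyte, 3 of 13 macrophage, 2 of 4 endothelial and 2 of 3 cholangiocyte markers past the filter. The macrophage markers read lower by their median in each treatment, with medians over the list of -0.99 (Ad.DKK-1), -0.74 (ICG-001) and -0.44 (FJ9), and so did the endothelial markers, with medians over the 4 measured of -0.42, -0.69 and -0.67. The hepatocyte list had medians of 0.12, -0.49 and 0.05 and the cholangiocyte list -0.21, -0.56 and -0.05. Between the vehicle arrays the macrophage, endothelial, hepatocyte and cholangiocyte lists had medians of 0.03, -0.03, -0.39 and 0.30. The stellate list had medians of -0.22, -0.23 and -0.26, but its genes differed widely. Lrat differed by -1.31, -1.42 and -3.34, with a vehicle difference of -0.95, and Hgf by -1.66, -0.85 and -0.55. Des differed by 0.31, 0.33 and -0.88, and Vim by 0.02, 0.05 and 0.04. The vehicle differences of Hgf, Des and Vim were -0.37, -0.59 and 0.29. The median level of the macrophage list ran from 5.53 to 6.43 over the arrays, with Cd14 highest at a mean of 10.7 and Adgre1 lowest at 5.05. The part of these lists in the results below was not tested. In these pooled cultures, fewer cells of a type and less RNA per cell cannot be told apart.

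The members' median level differed little between the arrays of a pair. It was 9.77 on the Ad.DKK-1 array and 9.85 on Ad.GFP, 9.70 on ICG-001 and 9.62 on its vehicle, and 9.44 on FJ9 and 9.55 on its vehicle. These are medians of levels on each array. They can hide a shift in the gene-by-gene differences, whose medians are given below. Of the 76 members, 54 (71.1%) stayed within 1.5-fold of the control in all 3 treatments, against 40.8% of all genes. The standard deviation of the differences over members was 0.42 with Ad.DKK-1, 0.42 with ICG-001 and 0.38 with FJ9, against 0.68, 0.56 and 0.63 over all genes. Between the vehicle arrays it was 0.27 over members and 0.34 over all genes. Without Cox6b2 the values over members were 0.38, 0.36 and 0.38 in the treatments and 0.19 between the vehicle arrays.

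**Figure D1:**
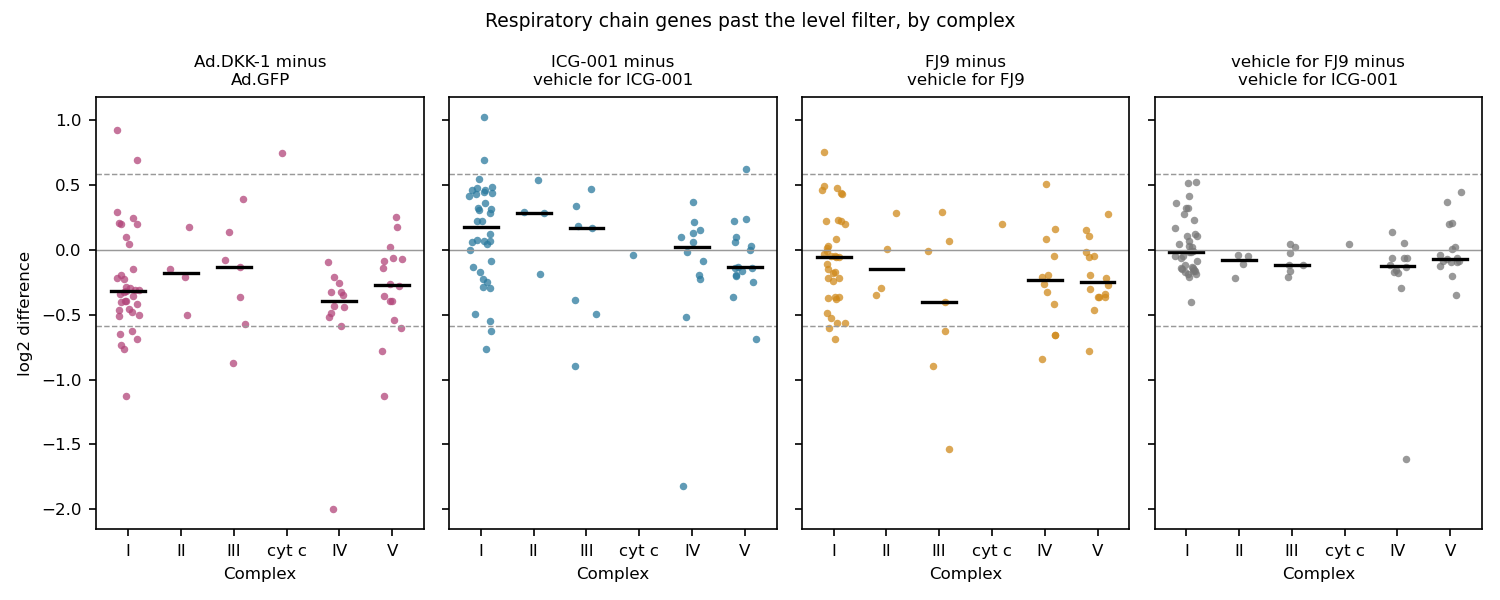
Log2 difference (vertical axis) of each of the 76 members past the level filter, by complex (horizontal axis), in the 3 treated minus control comparisons and between the vehicle arrays. Points are genes, black bars are medians over genes, and dashed lines mark 1.5-fold. Most points lie between the dashed lines, and complex IV lies wholly below 0 under Ad.DKK-1 and mostly below 0 between the vehicle arrays.

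Under Ad.DKK-1 the members leaned lower. The median difference was -0.32, against -0.07 over all genes, and 60 of the 76 members lay below 0. Past 1.5-fold either way were 15 members (19.7%, against 35.2% of all genes). Of these, 12 were lower (15.8%, against 20.8%) and 3 were higher (3.95%, against 14.5%). Most members thus read slightly lower, and the share past 1.5-fold was below that of all genes. The medians were -0.32 in complex I, -0.18 in complex II, -0.13 in complex III, -0.39 in complex IV and -0.27 in complex V. All 12 members of complex IV past the filter read lower than on Ad.GFP, from -2.0 to -0.09. Between the vehicle arrays 10 of these 12 also lay below 0, with a median of -0.12.

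Under ICG-001 the members showed no common lean. The median was 0.07, against 0.01 over all genes, with 43 members above 0 and 33 below. At least 1.5-fold higher were 3 members (3.95%, against 12.6% of all genes) and 5 were at least 1.5-fold lower (6.58%, against 13.1%). Centring each array on its median, which shifts this comparison by 0.17 for every gene, turned the split to 14 higher and 3 lower and the median to 0.24, and over all genes the higher and lower shares became 22.1% and 7.52%. With the other vehicle as control 8 members were higher and 6 lower (10.5% and 7.89%, against 12.5% and 12.2% of all genes). By complex the medians were 0.17 (I), 0.29 (II), 0.17 (III), 0.02 (IV) and -0.13 (V). The last of these became 0.04 with centring, and that of complex IV became -0.05 without the level filter.

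Under FJ9 the members leaned lower again. The median was -0.17, against 0.01 over all genes, with 52 of 76 below 0, beside 49 of 76 between the vehicle arrays. At least 1.5-fold lower were 9 members (11.8%, against 14.8% of all genes) and 1 was higher (1.32%, against 11.6%). Complex III had the lowest median at -0.40, followed by complexes IV and V at -0.24 each, complex II at -0.14 and complex I at -0.05. Against the vehicle of ICG-001 the median over members was -0.20, and 5 of the 9 lower calls and the higher call remained past 1.5-fold.

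Between the vehicle arrays 1 member was past 1.5-fold, Cox6b2 (1.32% of members lower, against 5.2% of all genes), and none was higher, against 2.44% of all genes. The members' median there was -0.06, against 0.02 over all genes, and 49 of the 76 lay below 0. With each array centred on its median, 22 of the 76 did. Vehicle medians by complex were -0.01 (I), -0.07 (II), -0.11 (III), -0.12 (IV) and -0.07 (V).

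The 3 comparisons share no array. At least 1.5-fold higher in 2 or 3 of them were 2 members, Ndufaf3 and Ndufaf4 (2.63%, against 8.03% of all genes), and 6 were lower in 2 or 3 (7.89%, against 11.5%). None was at least 1.5-fold higher in all 3, against 2.41% of all genes. Of the 76 members, 25 read lower in all 3 (32.9%, against 23.4% of all genes) and 10 read higher in all 3 (13.2%, against 23.6%). Under both Ad.DKK-1 and FJ9, 48 members read lower (63.2%, against 33.7% of all genes). Across the 76 members the differences correlated at r = 0.53 between Ad.DKK-1 and ICG-001, 0.53 between Ad.DKK-1 and FJ9, and 0.43 between ICG-001 and FJ9. Without Cox6b2 these values were 0.38, 0.50 and 0.38, and over all 10025 genes they were 0.46, 0.45 and 0.45. Genes are not independent replicates, and these values describe the arrays only.

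The 1 test the design allows is of the mean treated minus control difference over the 3 pairs, fitted with limma across all 10025 genes with the pair as a block. It speaks of the mean over 3 different treatments and not of any treatment alone. By limma 2 of the 76 members fell (Benjamini-Hochberg adjusted p under 0.05), Uqcrh and Cox6b2 (2.63%, against 5.02% of all genes). None rose, against 3.56% of all genes. At an unadjusted p under 0.05 limma gave 9 members lower and 2 higher, together 14.5% of members against 24.96% of all genes.

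**Figure D2:**
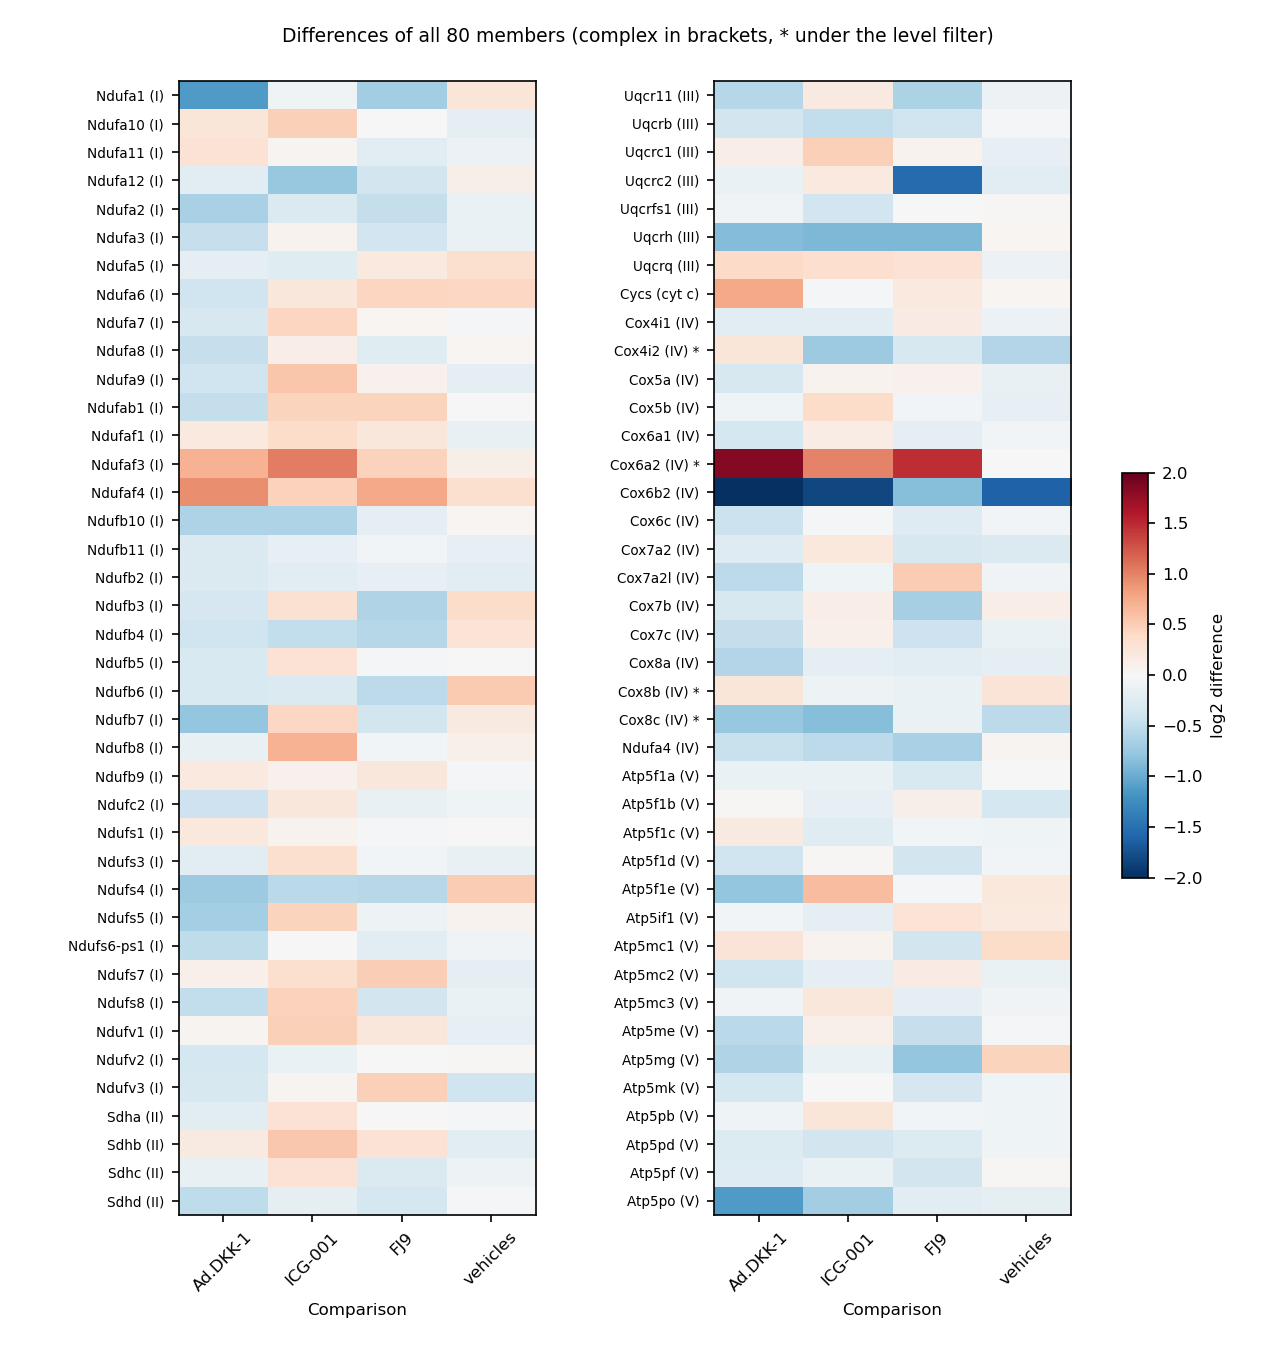
Log2 difference (colour) of all 80 members (rows, complex in brackets, an asterisk for members under the level filter) in the 3 treatments and between the vehicle arrays (columns, FJ9's vehicle minus ICG-001's). Uqcrh is blue at about the same depth in all 3 treatments and near 0 between the vehicles, and Cox6b2 is blue in all 4 columns.

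Complex I is entered by electrons from NADH through its core subunits, which hold the flavin and the iron-sulfur clusters. The 6 core subunits measured (Ndufs1, Ndufs3, Ndufs7, Ndufs8, Ndufv1 and Ndufv2) had medians of -0.08 with Ad.DKK-1, 0.32 with ICG-001 and -0.02 with FJ9, and none was past 1.5-fold in any treatment. Ndufs1, the largest iron-sulfur subunit, differed by 0.20, 0.07 and -0.03 in that order. Ndufv1, which binds NADH and the flavin, differed by 0.05, 0.48 and 0.22. Ndufs7, which holds the last iron-sulfur cluster before ubiquinone, differed by 0.10, 0.32 and 0.50.

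The 26 accessory subunits, which surround the core without carrying electrons, had medians of -0.37, 0.07 and -0.16. Under Ad.DKK-1 23 of the 26 read lower than on Ad.GFP, and 6 were at least 1.5-fold lower (23.1%, near the 20.8% of all genes). Ndufa1, a small subunit of the membrane arm, read 8.17 on Ad.DKK-1 and 9.30 on Ad.GFP, 8.89 on ICG-001 and 8.97 on its vehicle, and 8.51 on FJ9 and 9.20 on its vehicle. The virus pair held the widest gap and the ICG-001 pair almost none. The FJ9 difference of -0.69 was -0.45, within 1.5-fold, against the other vehicle.

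Ndufs4, an accessory subunit beside the NADH-oxidising module, read 7.59 on Ad.DKK-1 and 8.32 on Ad.GFP, 7.09 on ICG-001 and 7.64 on its vehicle, and 7.59 on FJ9 and 8.15 on its vehicle. It was lower in all 3 pairs, but the vehicles themselves differed by 0.52, about as much as the compounds did from them. Against the other vehicle, the Ndufs4 difference was -0.05 under FJ9 and wider under ICG-001, at 7.09 against 8.15. Ndufa12 read 8.78 on the ICG-001 array and between 9.29 and 9.67 on the other 5, and Ndufb10 differed by -0.62 under both Ad.DKK-1 and ICG-001 and by -0.17 under FJ9. Other accessory genes split by treatment. Ndufb8 (0.69) and Ndufa9 (0.55) were highest under ICG-001 while reading -0.14 and -0.39 under Ad.DKK-1, and Ndufb7 differed by -0.77 with Ad.DKK-1, 0.42 with ICG-001 and -0.36 with FJ9. Ndufv3 was 0.48 under FJ9 with a vehicle difference of -0.40, and its second probe set gave 0.26 and 0.05. Ndufa11 was the highest accessory gene under Ad.DKK-1, at 0.29.

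The 3 complex I assembly factors with Ndufaf names read higher, while others, outside the naming rule and given below, were mixed. Ndufaf1, Ndufaf3 and Ndufaf4 build the complex and are absent from the finished enzyme, and all 3 read higher in all 3 treatments. Ndufaf3 read 9.03 on Ad.DKK-1 and 8.34 on Ad.GFP, 9.06 on ICG-001 and 8.04 on its vehicle, and 8.62 on FJ9 and 8.16 on its vehicle. Ndufaf4, its partner in assembly, read 8.85 and 7.92, 8.74 and 8.29, and 9.37 and 8.61 in the same order. For both genes all 3 treated arrays lay above all 3 controls, although for Ndufaf4 the vehicle of FJ9 was only 0.13 below the ICG-001 array. Against the vehicle of ICG-001, the FJ9 difference of Ndufaf4 was 1.08. By limma the mean differences were 0.73 ± 0.23 (SE, adjusted p = 0.0606) for Ndufaf3 and 0.71 ± 0.22 (adjusted p = 0.0603) for Ndufaf4, and neither passed the threshold of 0.05. Ndufaf1 differed by 0.20, 0.36 and 0.22.

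**Figure D3:**
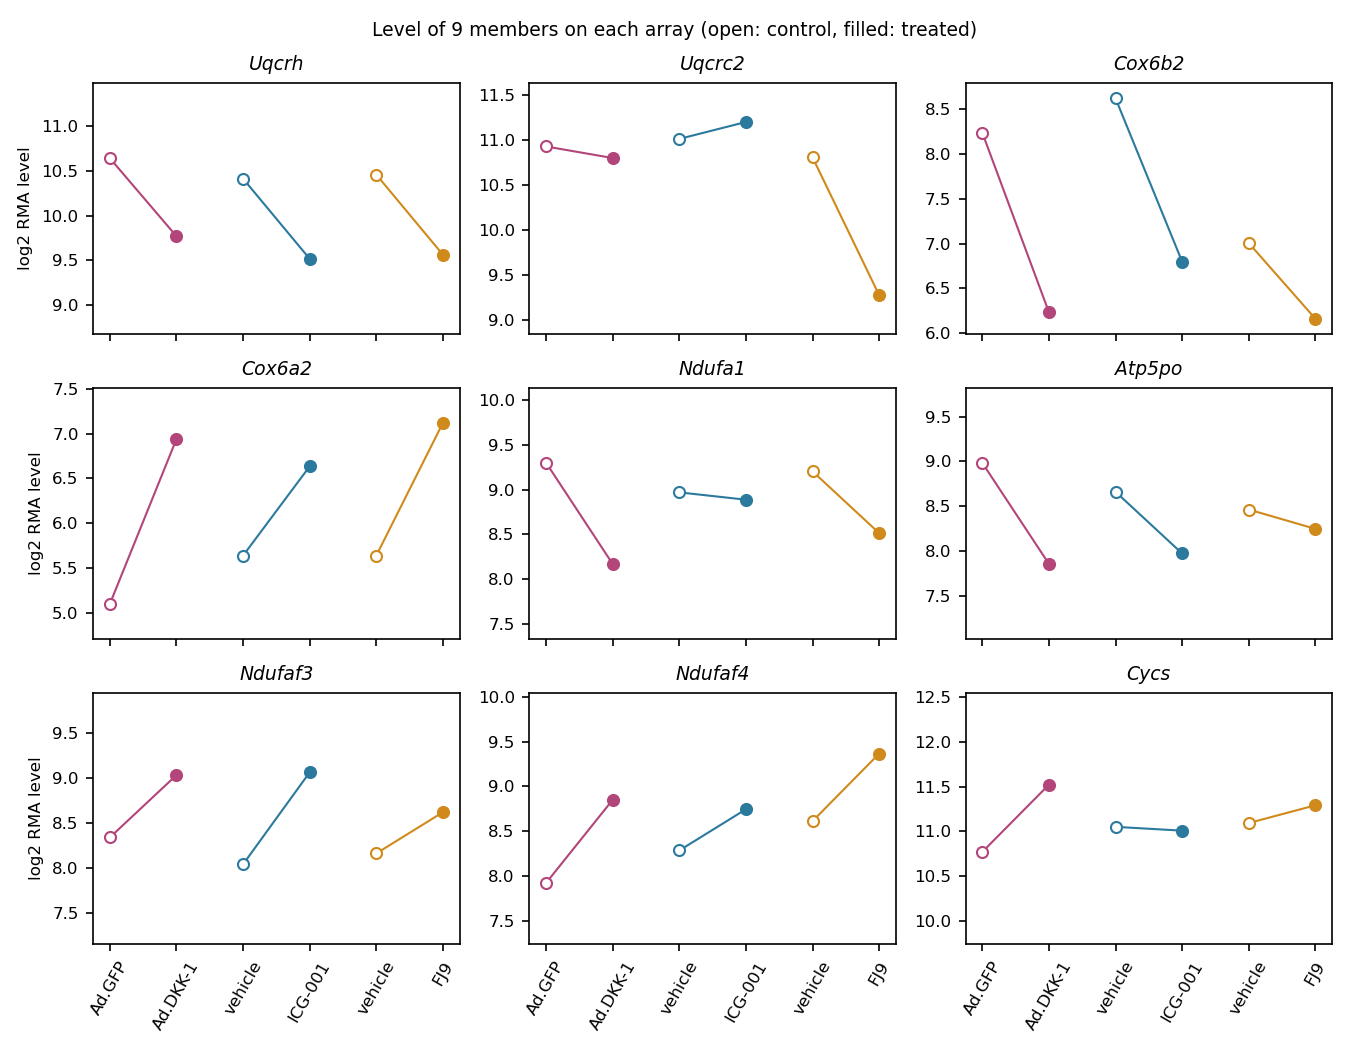
Log2 RMA level (vertical axis, the same span in every panel) of 9 members on the 6 arrays, with open points for controls, filled points for treated arrays and a line joining each treatment to its own control. Uqcrh is lower and Ndufaf3, Ndufaf4 and Cox6a2 are higher on the treated array of every pair, while Uqcrc2 is low on the FJ9 array alone.

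Complex II, which oxidises succinate and belongs to the citric acid cycle as well, held within 1.5-fold throughout. Sdha, which binds the flavin, differed by -0.20, 0.28 and 0.00 under Ad.DKK-1, ICG-001 and FJ9, and Sdhb, which holds the iron-sulfur clusters, by 0.18, 0.54 and 0.29. The membrane anchors read -0.15, 0.29 and -0.29 (Sdhc) and -0.50, -0.19 and -0.35 (Sdhd). Against the vehicle of FJ9 the ICG-001 difference of Sdhb was 0.75, and against that of ICG-001 its FJ9 difference was 0.08.

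In complex III, Uqcrh fell on the mean over the 3 pairs, with almost the same difference in each. This gene of the acidic hinge protein beside cytochrome c1 read 9.77 on Ad.DKK-1 and 10.64 on Ad.GFP, 9.52 on ICG-001 and 10.41 on its vehicle, and 9.56 on FJ9 and 10.46 on its vehicle. All 3 treated arrays lay below all 3 controls, and the vehicles differed by 0.05. The differences of -0.87, -0.89 and -0.89 correspond to 1.83-fold, 1.86-fold and 1.86-fold lower, and by limma the mean of -0.89 ± 0.19 (SE) had an adjusted p of 0.00946. Over the alternatives the adjusted p ran from 0.00782 to 0.0436. Of all 10025 genes, 3.14% were at least 1.5-fold lower in all 3 treatments. Of the members Uqcrh and Cox6b2 were, a share of 2.63%, near that background.

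Uqcrc2, a core protein of complex III on the matrix side, stood apart under FJ9. It read 9.27 on the FJ9 array and between 10.80 and 11.20 on the other 5. The difference of -1.54 from its own vehicle, 2.90-fold lower, was the lowest of any member under FJ9, and against the vehicle of ICG-001 it was -1.74. Its partner Uqcrc1 differed by 0.07 there. Under Ad.DKK-1 and ICG-001 Uqcrc2 differed by -0.13 and 0.19.

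The small subunits of complex III did not move as one. Uqcrb, beside the ubiquinone site, differed by -0.37, -0.50 and -0.40, and its 3 probe sets all read lower in each treatment. Uqcr11 differed by -0.57, 0.17 and -0.63. Uqcrq differed by 0.39, 0.34 and 0.29, higher in each. Uqcrfs1, the Rieske iron-sulfur protein, differed by -0.08, -0.39 and -0.01.

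Cytochrome c, the carrier between complexes III and IV that also triggers apoptosis when released, was 1 of the 3 members at least 1.5-fold higher under Ad.DKK-1. Cycs read 11.52 on Ad.DKK-1 and 10.77 on Ad.GFP, against 11.01 and 11.05 on ICG-001 and its vehicle and 11.29 and 11.09 on FJ9 and its vehicle. The differences were 0.75, -0.04 and 0.20, so the virus pair alone was past 1.5-fold. Its second probe set gave 0.71, -0.07 and 0.22.

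In complex IV the subunits common to most tissues leaned lower under Ad.DKK-1 and FJ9, with medians of -0.35 and -0.21 over 11 genes. Their median was 0.06 under ICG-001 and -0.12 between the vehicle arrays. Cox4i1, the common form of the regulatory subunit 4, differed by -0.21, -0.22 and 0.16. Cox6a1 differed by -0.35, 0.16 and -0.19, Cox7a2 by -0.25, 0.22 and -0.32, and Cox8a by -0.59, -0.19 and -0.21. Ndufa4 read lower in every pair, at -0.44, -0.52 and -0.65, with a limma mean of -0.54 ± 0.18 (SE) that missed the threshold (adjusted p = 0.0769). Cox7a2l, which joins complexes III and IV into supercomplexes, split the treatments at -0.52 with Ad.DKK-1, -0.08 with ICG-001 and 0.51 with FJ9.

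The tissue forms of complex IV subunits were mostly at low signal, and 2 of them, Cox6b2 and Cox6a2, differed widely. Cox6b2, the testis form of subunit 6B, read 6.24 on Ad.DKK-1 and 8.24 on Ad.GFP, 6.80 on ICG-001 and 8.62 on its vehicle, and 6.16 on FJ9 and 7.01 on its vehicle. Every treated array lay below every control, and the limma mean was -1.56 ± 0.29 (SE, adjusted p = 0.00442). Cox6b2 passed the filter on its mean of 7.18, but its Ad.DKK-1 and FJ9 levels lay under the filter level of 6.39. Its differences in those pairs are therefore read down to low signal. The vehicles differed by -1.61, however, and against the vehicle of FJ9 the ICG-001 difference was -0.21 in place of -1.82. Against that of ICG-001 the FJ9 difference was -2.46 in place of -0.84. With the vehicles exchanged between the compounds the limma adjusted p was 0.0106, and without the ICG-001 pair it was 0.0482.

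Cox6a2, the heart and skeletal muscle form of subunit 6A, is one of the 4 members under the level filter. Of the 80 members it had the highest difference under Ad.DKK-1 and FJ9 and, after Ndufaf3, the next highest under ICG-001. It read 6.94 on Ad.DKK-1 and 5.10 on Ad.GFP, 6.63 on ICG-001 and 5.64 on its vehicle, and 7.12 on FJ9 and 5.64 on its vehicle. All 3 treated arrays lay above the controls, and the vehicles differed by less than 0.01. With no level filter, limma gave a mean of 1.44 ± 0.30 (SE, adjusted p = 0.00541), and it is the 1 member called higher under that setting. Cox4i2, a form of subunit 4 known from lung and from cells at low oxygen, differed by 0.24, -0.73 and -0.32 with a vehicle difference of -0.59. Cox8b, another muscle form, differed by 0.24, -0.10 and -0.14, and Cox8c, a testis form, by -0.76, -0.85 and -0.13.

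In complex V the catalytic subunits stayed within 1.5-fold. Atp5f1a and Atp5f1b, which form the catalytic ring, differed by -0.14 and 0.02 under Ad.DKK-1, -0.14 and -0.16 under ICG-001, and -0.30 and 0.11 under FJ9. Atp5f1e, the small epsilon subunit of the central stalk, differed by -0.78 with Ad.DKK-1, 0.62 with ICG-001 and -0.02 with FJ9, and the ICG-001 value was 0.42 against the other vehicle. Atp5if1, which inhibits ATP hydrolysis by the enzyme, differed by -0.06, -0.19 and 0.28.

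Outside the head, the peripheral stalk and the membrane part read lower in places. Atp5po, the subunit that ties the stalk to the head, read 7.86 on Ad.DKK-1 and 8.98 on Ad.GFP, 7.97 on ICG-001 and 8.66 on its vehicle, and 8.25 on FJ9 and 8.46 on its vehicle. Its differences of -1.13, -0.69 and -0.22 were all lower, with a limma mean of -0.68 ± 0.24 (SE, adjusted p = 0.101), and the ICG-001 difference was -0.49 against the other vehicle. Atp5mg, a subunit at the dimer interface, differed by -0.60, -0.13 and -0.78, and the FJ9 value was -0.33 against the other vehicle. The 3 membrane subunits Atp5me, Atp5mg and Atp5mk had medians of -0.54, -0.0011 and -0.47 under Ad.DKK-1, ICG-001 and FJ9, and the 3 genes of the proton-carrying c-ring had medians of -0.07, 0.06 and -0.19.

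Where a member had several probe sets, they gave like differences. For 11 such genes the spread between probe sets had a median of 0.06 over the 3 treatments and reached 0.29, in Ndufv3 under Ad.DKK-1. The sign was the same in 31 of 33 cases. Between the vehicle arrays the Ndufv3 probe sets were 0.45 apart. Several respiratory chain genes have processed copies in the genome, so probe sets of one gene may share sequence and are not independent. Ndufs6-ps1 is listed by RefSeq as a pseudogene, and its signal cannot be told apart from that of the parent gene here. A probe set carrying both Ndufa10 and Ndufa10l1 was left out by the rule.

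Other genes that serve the respiratory chain were read as lists, beside the background shares given above. Of 19 regulators of mitochondrial biogenesis past the filter, 8 were at least 1.5-fold higher and 1 lower under Ad.DKK-1 (median 0.56), 9 and 1 under ICG-001 (0.49), and 7 and 0 under FJ9 (0.42), while the vehicles gave a median of 0.06 and no call either way. The higher shares were 42.1%, 47.4% and 36.8%, against 14.5%, 12.6% and 11.6% of all genes. Lower were 5.26%, 5.26% and 0%, against 20.8%, 13.1% and 14.8%. By limma 2 of the 19 rose, where 3.56% of all genes did. These were the growth regulator Myc (1.03, 0.75 and 0.81, adjusted p = 0.0120) and Tfb1m, which modifies the mitochondrial ribosomal RNA (0.80 ± 0.21 (SE), adjusted p = 0.0271). Tfam, which packages and transcribes mitochondrial DNA, differed by 0.70, 0.41 and 0.72, and the transcription factor gene Nrf1 by 0.56, 0.68 and 0.42. Twnk, the mitochondrial DNA helicase, differed by 0.58, 0.68 and 0.88, and Polg2 of the mitochondrial DNA polymerase by 0.56, 0.82 and 0.96. Not all of the 19 read higher, as 4, 3 and 4 lay below 0 in the 3 treatments. Among those were Esrrg (-0.73, -0.74 and 0.02) and Ppargc1b (-0.27, 0.91 and -0.21). Ppargc1a, the coactivator best known for driving biogenesis, did not pass the level filter and read -0.82, -0.88 and 0.34.

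Assembly factors outside the naming rule read higher mainly under ICG-001. Of 30 past the filter, 13 were at least 1.5-fold higher and none lower under ICG-001 (median 0.49). Under Ad.DKK-1 (-0.01) and under FJ9 (0.09), 4 were higher and 2 lower in each. Higher shares were 13.3% (Ad.DKK-1), 43.3% (ICG-001) and 13.3% (FJ9), against 14.5%, 12.6% and 11.6% of all genes. Lower shares were 6.67%, 0% and 6.67%, against 20.8%, 13.1% and 14.8%. The higher shares under Ad.DKK-1 and FJ9 were thus near the background. With loess correction the Ad.DKK-1 median was 0.11. By limma 3 of the 30 rose, where 3.56% of all genes did. These were Cox18, which inserts a complex IV subunit into the membrane (0.89, 1.08 and 0.55, adjusted p = 0.0263), Bcs1l, which inserts the Rieske protein into complex III (1.13, 0.89 and 0.45, adjusted p = 0.0433), and Ecsit of complex I assembly (0.71, 0.78 and 0.62, adjusted p = 0.0451). Cox20 went against them at -0.99, 0.00 and -1.19. The other complex I assembly genes of this list were mixed. Timmdc1 differed by 0.24, 0.68 and 0.27, and Acad9 by -0.02, 0.39 and 0.09. Tmem126a differed by 0.01, 1.06 and -0.15, Tmem126b by -0.45, 0.60 and 0.01, and Tmem186 by -0.21, 0.69 and -0.06.

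**Figure D4:**
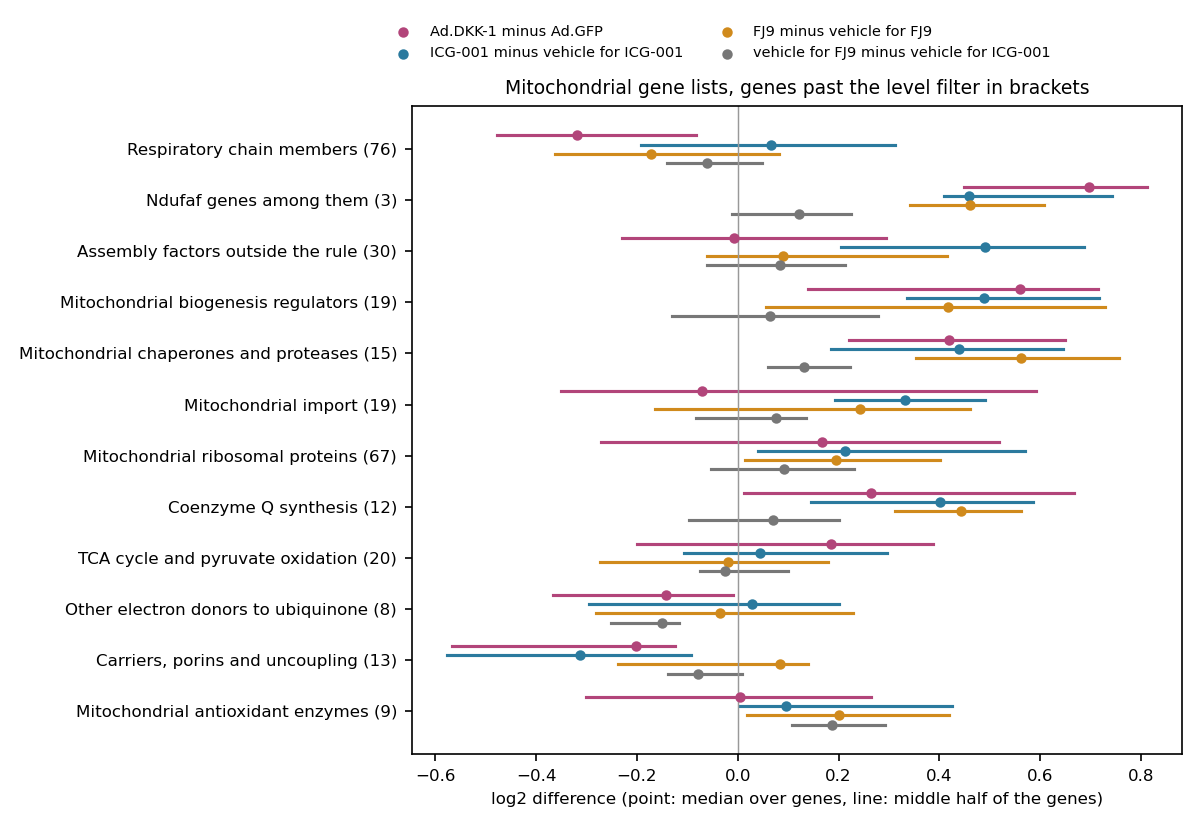
Median log2 difference (points) and the range of the middle part of the genes, from the 25th to the 75th percentile (lines), for the respiratory chain members, the 3 Ndufaf genes among them and 10 other mitochondrial gene lists, with 1 colour for each treatment and grey for the vehicles, and with the number of genes past the level filter in brackets. The respiratory chain members have medians of -0.32, 0.07 and -0.17, while biogenesis regulators and mitochondrial chaperones and proteases lie between 0.42 and 0.56 in all 3 treatments.

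The enzymes that feed electrons into the chain came next. Of 20 citric acid cycle and pyruvate genes, those past 1.5-fold were 2 higher and 1 lower under Ad.DKK-1 (median 0.18), none and 2 under ICG-001 (0.04), and 2 and 1 under FJ9 (-0.02). The ICG-001 median was -0.014 with loess correction, and the FJ9 median was 0.013 with the mean over probe sets. Dld, the dehydrogenase shared by the pyruvate and oxoglutarate complexes, rose by limma (0.88, 0.56 and 0.65, adjusted p = 0.0298). Pdk1, a kinase that shuts off pyruvate entry, differed by -0.26, -0.81 and -0.52, and Pdk4, under the filter, by -0.93, -0.21 and 1.26. The 12 genes of coenzyme Q synthesis, which make the ubiquinone that complexes I and II reduce, had medians of 0.26, 0.40 and 0.44, with 4, 3 and 3 at least 1.5-fold higher and 0, 1 and 0 lower. Coq10b differed by 1.07, 0.25 and 0.45. The 8 other enzymes that pass electrons to ubiquinone had medians of -0.14, 0.03 and -0.04, with Dhodh of pyrimidine synthesis at 0.66 under Ad.DKK-1 and Gpd2 at 0.91 under ICG-001 the 2 past 1.5-fold. Those medians became -0.079 under ICG-001 with loess correction and 0.063 under FJ9 without the level filter. Of the 8, 12.5% were past 1.5-fold under Ad.DKK-1 and under ICG-001, against 35.2% and 25.7% of all genes.

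The last list held inner membrane carriers, porins and uncoupling proteins. Of 13 past the filter, 3 were at least 1.5-fold lower under Ad.DKK-1 (median -0.20), 3 under ICG-001 (-0.31) and 2 under FJ9 (0.08), and none was higher. These lower shares of 23.1%, 23.1% and 15.4% stood beside 20.8%, 13.1% and 14.8% of all genes, so those under Ad.DKK-1 and FJ9 were near the background. By limma 2 fell, where 5.02% of all genes did. Ucp2, a carrier of the uncoupling protein family, differed by -1.22, -1.02 and -0.63 (mean -0.96 ± 0.19 (SE), adjusted p = 0.00742). Slc25a1, which exports citrate, differed by -0.75, -0.58 and -0.77 (adjusted p = 0.0345) with a vehicle difference of -0.46.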

How the data were processed

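Total RNA of pooled rat stellate cell cultures was labelled with biotin and read on Affymetrix whole-transcript arrays, per the labels' protocols. The deposited values are log2 expression values that the authors made by RMA with Expression Console, as listed in the submitters' processing notes. Versions and genome build: not given in the sources used here. Medians of the arrays over 26988 probe sets ran from 7.01 to 7.28, so the shared scale was not exact. Values were used as deposited. Having 6 arrays limits the precision.

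Gene names came from the platform annotation: 15092 had 1 gene symbol, 323 had several and 11573 were unnamed. Entrez identifiers of 15062 matched RefSeq genes of GRCr8, used for names and gene type alone, and 0 symbols changed. No sequences or coordinates are given. Differences of treated minus own control were counted past 1.5-fold. limma 3.58.1 (R 4.3.3; lmFit, then eBayes with a mean-variance trend; two-sided p-values, adjusted by Benjamini-Hochberg over 10025 genes, threshold 0.05, 2 residual degrees of freedom a gene) tested the mean over the 3 pairs, and its script was tested on simulated data. Whether cultures of different groups share rats is not stated. The p-values rest on how far the treated minus control difference varied among these 3 pairs, which are different treatments. They do not measure the spread between cultures or rats.

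The members, lists, tests and rule for named genes were chosen with earlier results of these data known. The rule named members past 1.5-fold in the same direction in 2 or 3 treatments, the 5 highest and lowest in each treatment and in limma, limma's calls, a fixed set of isoform pairs and catalytic subunits, and up to 3 genes per treatment of each other list. It gave 38 members and 67 other genes. Other genes named, among them Ndufaf1, Uqcrb, Uqcr11, Uqcrc1, Ndufb7, Cox8c and Ecsit, were chosen after their values were seen. Alternatives varied the scaling, level filter, probe set rule, fold limit, control array and pairs. Exchanging the vehicles in limma was added after seeing the data.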

Additional observations from a re-analysis of the deposited data

How the results depend on the processing

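With 1 array a group, differences depend on the control pool. Over 114 count and median values under alternatives, 85 stayed within 1.5 times (counts) or moved by no more than the vehicles differed (medians). Centring each array on its median moved the Ad.DKK-1 median to -0.22, the ICG-001 median to 0.24 with 14 higher and 3 lower, and the vehicle median to 0.072 with 2 higher. Loess correction turned the ICG-001 median to -0.023 with 1 higher, against 12.0% of all genes. Repeated quantile normalization gave 2 higher between vehicles, against 4.56% of all genes. With the other vehicle, ICG-001 had 8 higher and FJ9 2 higher, against 12.5% and 15.8% of all genes. Without the level filter FJ9 had 2 higher, the vehicles 2 lower and limma 1 higher (Cox6a2), against 10.6%, 7.84% and 2.55% of all genes. With the lowest 50% of genes left out, the vehicles had 0 lower and limma 1 lower (Uqcrh), because Cox6b2 was not tested there. At 1.3-fold 4 members were higher and 30 lower under Ad.DKK-1 (5.26% and 39.5%, against 24.8% and 31.5% of all genes). Under ICG-001 there were 14 and 10 (18.4% and 13.2%, against 23.9% and 23.4%). FJ9 gave 7 and 17 (9.21% and 22.4%, against 22.1% and 23.5%). The vehicles gave 4 and 2 (5.26% and 2.63%, against 9.07% and 12.7%). At 2-fold the counts were 0 and 3, 1 and 1, and 0 and 1 in the treatments. The shares of all genes there were 3.99% and 7.91%, 2.89% and 3.28%, and 2.44% and 6.00%. Leaving out each pair in turn left Uqcrh and Cox6b2 called by limma. Among 1129 values of complexes, lists and named genes, 994 held, 135 moved and none of the called values changed sign. For a named gene, using the other vehicle shifts the value by the vehicle difference, which is itself the limit for holding. A change of level filter leaves the value of a named gene as it was. Much of the 994 was therefore fixed in advance, and that count does not measure how robust the values are. The limma fit is paired, with each treatment and its control as a block, and the labels give no replicate numbers for a further block. Probe sets near the floor of 4 have the least signal over background, which limits Cox6a2, Cox4i2, Cox8b and Cox8c. Low signal also limits Cox6b2 on the Ad.DKK-1 and FJ9 arrays.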

Other observations

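Mitochondrial chaperones and proteases had medians of 0.42, 0.44 and 0.56 under the treatments. Of 15 chaperones and proteases past the level filter, 4 were at least 1.5-fold higher with Ad.DKK-1, 6 with ICG-001 and 7 with FJ9, none was lower, and the vehicles gave no call. Over all genes 14.5%, 12.6% and 11.6% were higher, against 26.7%, 40.0% and 46.7% of the list. Some members read below their controls, among them Spg7 (-0.41, -0.31 and 0.39), Yme1l1 (0.25, -0.28 and -0.22) and Trap1 (-0.35, 0.65 and 0.14). By limma 3 of the 15 rose, where 3.56% of all genes did. Lonp1, the ATP-dependent protease of the matrix, differed by 1.55, 1.24 and 1.82, with a mean of 1.53 ± 0.20 (SE, adjusted p = 0.000335) and a vehicle difference of -0.09. Hspa9, the matrix Hsp70 chaperone, differed by 1.28, 0.69 and 1.06 (limma adjusted p = 0.00445), and its co-chaperone Dnaja3 by 0.97, 0.64 and 0.98 (limma adjusted p = 0.0176). The chaperonin genes differed less, at 0.55, 0.17 and 0.66 for Hspd1 and 0.29, 0.39 and 0.69 for Hspe1.

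The 67 mitochondrial ribosomal protein genes, whose products translate the mitochondrially encoded subunits, had medians of 0.17, 0.21 and 0.19 in the order Ad.DKK-1, ICG-001 and FJ9, and 0.09 between vehicles. At least 1.5-fold higher were 9, 14 and 9 of them (13.4%, 20.9% and 13.4%, against 14.5%, 12.6% and 11.6% of all genes), and 4, 0 and 3 were lower. The shares with Ad.DKK-1 and FJ9 were near the background. By limma 2 of the 67 rose, where 3.56% of all genes did. Mrps18b (0.82, 0.76 and 0.94, limma adjusted p = 0.0126) and Mrps10 (limma adjusted p = 0.0434) were those 2. Of 19 import genes, Timm8a1 (0.76, 0.91 and 0.93, limma adjusted p = 0.0227) and Timm10 (0.85, 1.17 and 0.67, limma adjusted p = 0.0417) rose, and the list medians were -0.07 (0.022 with centring), 0.33 and 0.24. The 9 antioxidant enzymes had medians of 0.01, 0.09 (-0.087 with the other vehicle) and 0.20, beside 0.19 between the vehicles, where Sod2 differed by 0.91.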
